A study of Mus musculus with 6 samples.

Results

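The genes described here were 9 immediate-early transcription factors: the AP-1 subunits Fos, Fosb, Fosl1, Fosl2, Jun, Junb, and Jund, the related factor Atf3, and the zinc finger factor Egr1. They were picked by symbol, and all 9 were among the 30406 genes listed for every library. The data were single-nucleus RNAseq counts from mouse periosteum before and after an open, non-stabilized tibial fracture. Uninjured libraries used periosteum alone, whereas the tissue taken 3, 5, or 7 days after fracture also included hematoma, and all nuclei were sorted by flow cytometry. All mice were 12 weeks old and of the C57BL6 strain, with 4 mice pooled for each uninjured library and 4 to 9 mice for each injured library. There were 2 uninjured libraries, 2 libraries at day 3, and 1 library each at days 5 and 7. Because the hematoma was collected only after fracture, its nuclei and the injury itself cannot be told apart.

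AP-1 is a dimer in which a JUN protein pairs with another JUN protein, with a FOS protein, or with a related factor such as ATF3. Many of these genes are transcribed within minutes of a growth factor, a cytokine, mechanical load, or stress, without new protein synthesis, and their transcripts are short-lived. In the skeleton, FOS is needed for osteoclasts to form, FOSL1 and FOSL2 act in bone matrix production, and JUNB acts in the proliferation of bone-forming cells.

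The libraries differed in size and depth. The uninjured libraries held 655 and 1446 barcodes with 1499281 and 6570301 UMIs. The day 3 libraries held 754 and 4712 barcodes with 2516184 and 29796296 UMIs. Day 5 held 2536 barcodes with 10411092 UMIs, and day 7 held 3448 barcodes with 4500767 UMIs. After the filters on genes, mitochondrial, and ribosomal content, 8067 of 13551 barcodes remained, and among these no pair of libraries shared more than 2. Of these, 1761 belonged to myogenic clusters and were left out, and 6306 nuclei in 13 named populations were kept.

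Several libraries stood apart before any gene was compared. In day 3 replicate 2, 34.4% of stromal nuclei held a UMI of the leukocyte gene Ptprc, against 0.752% and 1.59% in uninjured, 7.69% in day 3 replicate 1, 5.94% on day 5, and 2.32% on day 7. Its stromal nuclei were also the deepest, with a median of 5282.5 UMIs, against 1387, 2144, 2327, 3824, and 1315 in the other libraries in the same order. The median ribosomal protein share of its stromal nuclei was 0.575%, against 0.200%, 0.281%, 0.292%, 0.389%, and 0.162% in the others. Over all barcodes of day 7, before filtering, that median was 13.2%. The Cell Ranger version was 6.0.0 for uninjured replicate 1, day 5, and day 7 and 7.1.0 for the other 3 libraries, so it cannot be told apart from day 3 against days 5 and 7. Uninjured replicate 1 had the fewest UMIs of all libraries and held only 15 immune-like nuclei with 8906 UMIs. Leave-one-library-out values are therefore given for the calls of the members.

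Levels are counts per 1000000 UMIs (CPM) of the summed nuclei of a population in a library. The brackets give exact Poisson 95% intervals, which hold counting error only and no spread between mice or libraries. SSPC-, fibroblast-, injury-induced fibrogenic cell (IIFC)-, osteoblast-, and chondrocyte-like nuclei were summed as stromal nuclei, with 133, 377, 117, 256, 1111, and 820 nuclei in the order uninjured 1 and 2, day 3 replicates 1 and 2, day 5, and day 7. This order is kept throughout. Tests compared the 2 day 3 with the 2 uninjured libraries by edgeR over all genes that passed its filter on low counts, with p-values adjusted by Benjamini-Hochberg and a threshold of 0.05. Their p-values measure the spread between pooled libraries and not between mice.

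Over all named nuclei, the JUN genes and Fos had the most UMIs per length of gene. Jund, which encodes a broadly expressed JUN subunit, had 30.8 CPM per kb of gene, followed by Junb at 15.8, Fos at 14.9, and Jun at 14.7 CPM per kb. These values divide by the annotated span. Only 1809 of 4235 bases are exonic for Junb, 6537 of 22042 for Fosl2, and 2154 of 47744 for Atf3. The places of Junb relative to Jund, of Fosl2, and of Atf3 among the lowest therefore depend on the length used. Egr1 had 4.68 and Fosl2 4.03 CPM per kb, and the lowest were Fosb at 1.04, Fosl1 at 0.652, and Atf3 at 0.211 CPM per kb. The coding transcripts of Jun, Junb, and Jund have 1 exon, and the UMIs of the other members can also come from introns. Those of Junb can also come from the part of its span that is not exonic. In UMIs alone, Fosl2 had 2074, Junb 1566, Jund 1201, Fos 1178, Jun 1093, Egr1 565, Atf3 235, Fosb 178, and Fosl1 128. A gene on the opposite strand overlaps Fosl1 (Ccdc85b), Jun (Junos), Junb (Prdx2), Jund (Gm11175), and Atf3 (Gm24748).

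The members were spread over many populations, and the populations with most of each gene differed. The sums in this description pool libraries with unlike shares of each population, and the order within single libraries can differ. Fosl2, a FOS family subunit without the transactivation domain of FOS, was highest in osteoclast-like nuclei at 513 CPM [438–596]. It followed at 115 CPM [92.4–142] in neutrophil-like, 103 [96.0–111] in IIFC-like, and 89.2 [79.0–100] in endothelial-like nuclei. Macrophage-like nuclei had 58.2 CPM [51.9–65.0] of Fosl2, and Schwann-like nuclei had the least with 15.1 CPM [3.12–44.2]. Only the osteoclast-like sum stood above all others by these intervals, and the neutrophil-, IIFC-, and endothelial-like intervals overlapped their neighbors. Fos, the founding FOS subunit, was also highest in osteoclast-like nuclei in the sum, at 225 CPM [176–282]. Its next levels were 126 CPM [117–136] in macrophage-like and 79.5 [60.7–102] in neutrophil-like nuclei, and these 3 intervals did not overlap. All other populations had 35.9 CPM of Fos or less. The lead of osteoclast-like nuclei came from day 3 replicate 2, with 482 CPM [358–636] against 142 [130.3–155] in macrophage-like nuclei. Day 5 had 118 [69.9–186] against 111 [91.7–133]. Day 3 replicate 1 held only 12 osteoclast-like nuclei, and its wide interval is given below.

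**Figure D1:**
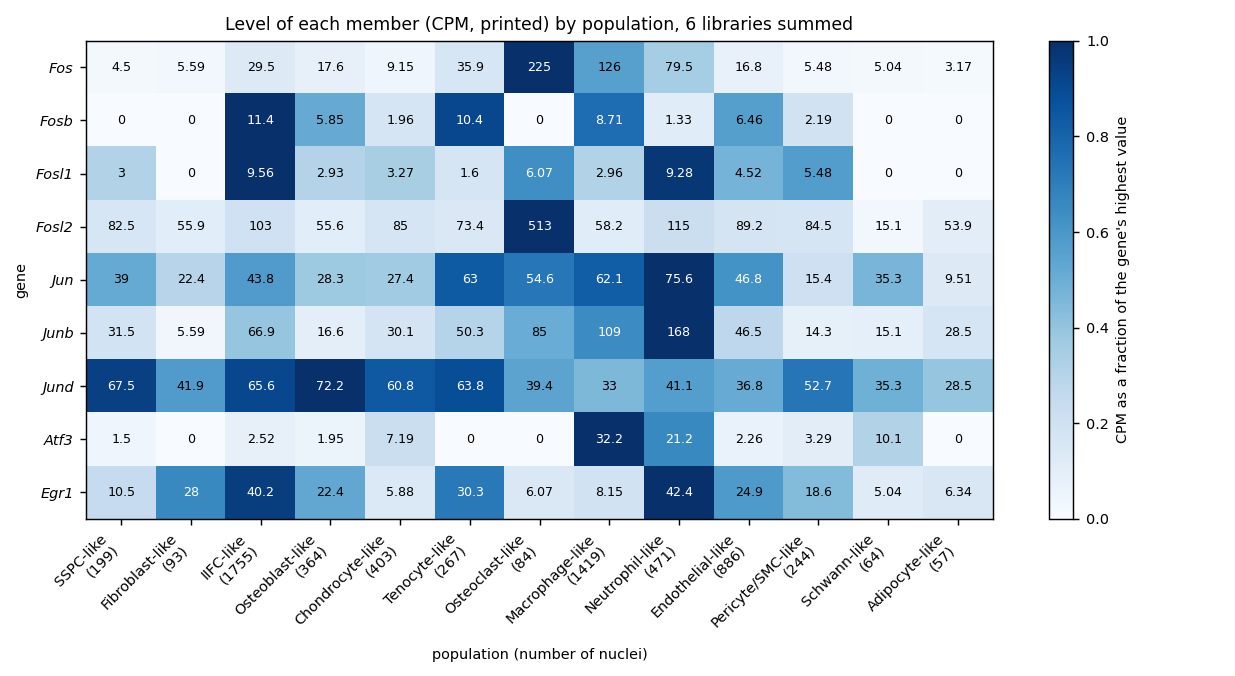
Level of each member in each named population, with the nuclei of the 6 libraries summed.

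Junb, which encodes a JUN subunit that can oppose JUN at some promoters, followed another order. It was highest in neutrophil-like nuclei at 168 CPM [140–200], followed by macrophage-like nuclei at 109 [101–118], osteoclast-like nuclei at 85.0 [56.5–123], and IIFC-like nuclei at 66.9 [61.2–73.0]. The neutrophil-, macrophage-, and IIFC-like intervals did not overlap, whereas the osteoclast-like interval overlapped the last 2, and 378 of the 471 neutrophil-like nuclei came from day 3 replicate 2. In that library Junb was at 194 CPM [159.9–234] in neutrophil-like, 177 [156–199] in IIFC-like, and 119 [108–130.5] in macrophage-like nuclei, so the last 2 were in the reverse order. Atf3, a stress-induced factor that often acts as a repressor, was mostly found in macrophage-like nuclei at 32.2 CPM [27.6–37.4] and neutrophil-like nuclei at 21.2 [12.1–34.4], whose intervals overlapped. It had no UMI in fibroblast-, tenocyte-, osteoclast-, or adipocyte-like nuclei. Egr1, a zinc finger activator, ranged from 42.4 CPM in neutrophil-like and 40.2 in IIFC-like nuclei to 8.15 CPM in macrophage-like and 5.04 in Schwann-like nuclei. Jund had its highest sums in skeletal nuclei, with 72.2 CPM [56.7–90.6] in osteoblast-like, 67.5 in SSPC-like, and 65.6 in IIFC-like nuclei, and 33.0 CPM in macrophage-like nuclei. Its mean over the libraries had the other order, with 50.7 CPM (SD 38.1) in immune-like and 45.9 CPM (SD 25.6) in stromal nuclei. The highest immune-like value, 112 CPM, came from the 15 nuclei with 8906 UMIs of uninjured replicate 1. Jund was lower in immune-like than in stromal nuclei in 4 of 6 libraries, so no order is read from these means.

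Single libraries varied widely around these sums. Over the 6 libraries, Fosl2 had a mean of 92.8 CPM (SD 40.3) in stromal, 102 CPM (SD 51.0) in endothelial-like, 78.3 CPM (SD 44.5) in pericyte-like, and 52.1 CPM (SD 35.7) in immune-like nuclei. Junb had means of 59.3 CPM (SD 62.4) in stromal, 46.6 CPM (SD 39.6) in endothelial-like, and 90.1 CPM (SD 35.6) in immune-like nuclei. For both genes these means lay within 2 SD of each other. Fos had a mean of 67.6 CPM (SD 49.2) in immune-like nuclei, against 21.7 (SD 22.5) in stromal and 17.3 (SD 15.5) in endothelial-like nuclei. Atf3 had a mean of 25.2 CPM (SD 23.4) in immune-like and 3.34 CPM (SD 1.12) in stromal nuclei.

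The osteoclast-like nuclei were few, with 3, 2, 12, 19, 27, and 21 nuclei in the 6 libraries. Their Fosl2 level was 332 CPM [133–684] and 135 [73.8–227] at day 3, 733 [604–882] on day 5, and 669.6 [445–968] at day 7. The uninjured values, 415.6 and 895.6 CPM, rested on 1 and 7 UMIs. The day 5 and day 7 intervals lay above that of day 3 replicate 2. Fos in these nuclei was 189.6 CPM [51.7–485] and 482 [358–636] at day 3, 118 [69.9–186] on day 5, and 0 [0–88.2] at day 7, with 1 UMI in each uninjured library. Among the injured libraries, day 3 replicate 2 thus had the most Fos and the least Fosl2 in osteoclast-like nuclei. The intervals of day 3 replicate 1 overlapped those of day 5 for both genes. No order of days is therefore read, and no test was made on so few nuclei.

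Fos separated immune-like from stromal nuclei. In stromal nuclei, Fos was at 25.8, 1.32, 13.4, 62.9, 22.9, and 3.65 CPM, and in immune-like nuclei at 0, 44.9, 63.3, 136, 113, and 49.1 CPM. The immune-like level was the higher one in 5 of 6 libraries, all except uninjured replicate 1 with its 15 immune-like nuclei. Over the 6 libraries, with the library as a term of the fit, 3 of 6 tested members differed between immune-like and stromal nuclei, where 42.9% of 8174 genes did, 20.0% higher and 22.9% lower. Fos was higher in immune-like nuclei by 2.26 on the log2 scale (SE 0.41, edgeR adjusted p = 0.000103), against a median of −0.07 over all genes. This call held in every alternative, with an adjusted p from 1.07e-05 to 0.00141.

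Fosl2 and Egr1 went the other way, with weaker calls. Fosl2 was at 68.7, 40.3, 145, 132, 99.7, and 71.2 CPM in stromal and at 0, 28.9, 73.4, 58.3, 103, and 49.1 CPM in immune-like nuclei. The stromal level was the higher in 5 of 6 libraries, all except day 5. The difference for Fosl2 was −0.67 (SE 0.24, edgeR adjusted p = 0.0271). It passed the threshold no longer without day 3 replicate 1 (−0.62, adjusted p = 0.0897), day 3 replicate 2 (−0.55, 0.139), or day 7 (−0.70, 0.0558), with a range of 0.00745 to 0.139 over the alternatives. Egr1 was at 17.2, 16.5, 2.69, 69.6, 33.5, and 6.70 CPM in stromal and at 0, 19.3, 7.60, 12.7, 12.3, and 0 CPM in immune-like nuclei. It was lower in immune-like nuclei in 4 of 6 libraries, and the difference was −1.24 (SE 0.49, edgeR adjusted p = 0.0446). The Egr1 call was lost by DESeq2 (−1.08, 0.101) and without day 5 (−1.12, 0.192) or day 7 (−1.28, 0.0559), with a range of 0.0032 to 0.192.

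The other members tested were not called between these nuclei. Junb was higher in immune-like nuclei in 5 of 6 libraries, by 0.73 (SE 0.35, edgeR adjusted p = 0.0991). Jun and Jund differed by 0.37 and −0.42. Atf3 did not pass the filter on low counts here, although its immune-like levels of 0, 9.63, 12.7, 33.4, 30.3, and 65.4 CPM were above its stromal levels of 4.29, 1.98, 2.69, 4.46, 2.34, and 4.26 CPM in 5 of 6 libraries. It was tested only where an uninjured library was left out, with differences of 3.19 (SE 0.59, edgeR adjusted p = 0.000237) without replicate 1 and 3.23 (SE 0.61, 0.000175) without replicate 2.

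No member tested was called between stromal nuclei and endothelial-like or pericyte-like nuclei. Of 6 members tested, 0 were called in endothelial-like nuclei by edgeR, where 30.0% of genes were, 12.8% higher and 17.2% lower. None had an unadjusted p under 0.05, and DESeq2 called 0. In pericyte-like nuclei 0 of 6 were called by edgeR, against 14.3% of genes, 6.41% higher and 7.93% lower. There 1 member had an unadjusted p under 0.05, Junb at −1.48 (edgeR adjusted p = 0.135), and DESeq2 called 0. Both day 3 libraries had fewer than 10 pericyte-like nuclei, so the pericyte-like sums of this comparison came from 4 libraries.

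In stromal nuclei, Junb and Fosl1 rose at day 3 post-fracture. Of the 8 members tested, 2 passed the threshold, both higher, where 10.1% of 9754 genes passed in either direction, 4.25% higher and 5.87% lower. Junb was at 12.9 [2.66–37.6] and 19.8 CPM [13.4–28.3] before injury and reached 108 [76.8–146] and 164 [146–184] at day 3, with 35.1 [30.3–40.4] left at day 5 and 16.4 [10.8–23.9] at day 7. Both day 3 libraries lay above both uninjured libraries, with no overlap of their intervals, and the day 7 value lay within the range of the uninjured values. The means were 16.4 ± 4.92 CPM in uninjured and 136 ± 40.1 CPM at day 3 (± SD, n = 2 and 2). The day 3 to uninjured ratio of Junb was 8.17 (counting interval 5.71–12.1), and the log2 difference was 2.85 (SE 0.44, edgeR adjusted p = 0.00389), against a median of 0.01 over all genes.

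**Figure D2:**
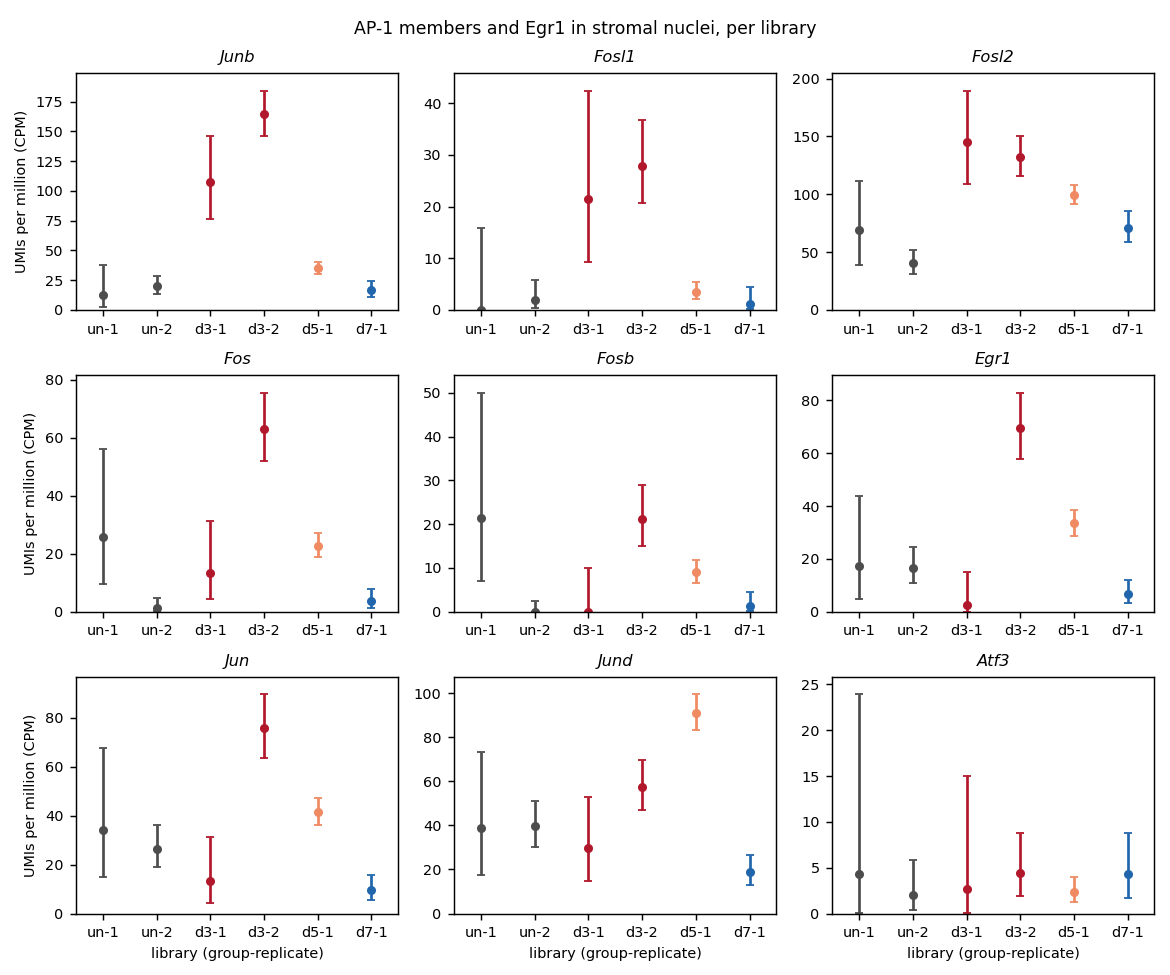
Level of each member in stromal nuclei of each library, with exact Poisson 95% intervals. Points are single libraries of pooled mice.

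The Junb call was lost in 1 alternative only. Without uninjured replicate 2, where the deepest control is missing and 82 genes passed in all, the difference was 3.33 with an adjusted p of 0.0769. Over all alternatives the adjusted p ran from 1.62e-06 to 0.0769. A group of 1 library has no spread of its own, so a fit without 1 library takes it from the other group alone. The adjusted p was 0.000177 without uninjured replicate 1, 0.00203 without day 3 replicate 1, and 0.00164 without day 3 replicate 2. DESeq2 gave 2.91 with an adjusted p of 0.000391. In the single cluster best filled in these 4 libraries, an IIFC-like cluster with high Pdzrn4, the difference was 2.85 with an adjusted p of 0.0109.

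Fosl1, a FOS family subunit that is itself a target of AP-1, was rarer. It was at 0 [0–15.8] and 1.98 CPM [0.409–5.80] before injury and reached 21.5 [9.29–42.4] and 27.8 [20.7–36.7] at day 3, with 3.42 [2.06–5.34] left at day 5 and 1.22 [0.147–4.40] at day 7. Both day 3 values lay above both uninjured values, although the interval of uninjured replicate 1 reached into that of day 3 replicate 1. The uninjured libraries held 3 UMIs of Fosl1 and the day 3 libraries 58, a ratio of 15.6 (counting interval 5.07–77.7), and the log2 difference was 3.75 (SE 0.88, edgeR adjusted p = 0.0210). The call was lost by DESeq2 (3.94, 0.0727), when all non-myogenic nuclei were summed (2.04, 0.223), and without uninjured replicate 2 (7.40, 0.230), with a range of 0.00727 to 0.230. Fosl1 was not tested without day 3 replicate 2, nor in the best-filled cluster alone.

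Fosl2 and Fos had higher mean levels at day 3 but did not pass. Fosl2 was at 68.7 [39.3–112] and 40.3 CPM [30.9–51.8] in uninjured, 145 [109–189] and 132 [116–150] at day 3, 99.7 [91.6–108] on day 5, and 71.2 [58.9–85.4] at day 7. The values of the 2 groups did not overlap, and the log2 difference was 1.38 (SE 0.43, edgeR adjusted p = 0.0702). Fosl2 passed with no filter on low counts (0.0321), without day 3 replicate 2 (1.67, 0.0325), and without uninjured replicate 1 (1.72, 0.0194), and its adjusted p reached 0.346 without uninjured replicate 2. Fos was at 25.8 [9.45–56.1] and 1.32 CPM [0.160–4.78] in uninjured, 13.4 [4.36–31.4] and 62.9 [51.9–75.7] at day 3, 22.9 [19.1–27.2] on day 5, and 3.65 [1.34–7.95] at day 7. Uninjured replicate 1 lay above day 3 replicate 1 for Fos, so the groups overlapped. The log2 difference of Fos was 2.39 (SE 1.14, edgeR adjusted p = 0.243), and it was 4.73 with an adjusted p of 0.000184 without uninjured replicate 1 and 0.58 with 0.769 without uninjured replicate 2.

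The remaining members had no common direction between the libraries of a group. Fosb, which encodes a FOS subunit with a long-lived splice form, was at 21.5, 0, 0, 21.2, 9.00, and 1.22 CPM, with 5, 0, 0, 38, 50, and 2 UMIs. Its difference was 1.44 (edgeR adjusted p = 0.667), and it passed only without uninjured replicate 1 (adjusted p = 0.0285), where the remaining control held no UMI. Egr1 was highest in day 3 replicate 2 at 69.6 CPM [57.9–82.9] and lowest in day 3 replicate 1 at 2.69 CPM with 1 UMI. Jun, the JUN subunit whose protein activates its own gene, was at 34.3, 26.4, 13.4, 75.7, 41.4, and 9.74 CPM. For Egr1 and Jun the 2 day 3 libraries were thus the lowest and the highest of the 4 compared, with differences of 1.12 (edgeR adjusted p = 0.511) and 0.59 (0.674). Jund was at 38.6, 39.7, 29.6, 57.4, 91.2, and 18.9 CPM, with its highest value at day 5 [83.5–99.5] and a day 3 difference of 0.10 (edgeR adjusted p = 0.938). Atf3 stayed between 1.98 and 4.46 CPM in all 6 libraries and did not pass the filter on low counts. With no filter its difference was 0.51 (SE 1.55, edgeR adjusted p = 0.908), and with all non-myogenic nuclei summed 2.51 (0.102).

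Leukocyte markers in stromal nuclei also differed between the libraries. All 5 of 5 macrophage markers had UMIs in stromal nuclei, with Ptprc the most abundant and none at 0, and they summed to 8.58, 15.9, 121, 388, 83.5, and 32.3 CPM. All 5 of 5 neutrophil markers were found as well, with Csf3r the most abundant and none at 0, and they summed to 8.58, 5.95, 16.1, 138, 7.92, and 4.26 CPM. Day 3 replicate 2, which had the most Junb, Fos, Egr1, and Jun in stromal nuclei, also had the most of both marker lists. Day 3 replicate 1 had more of both lists than either uninjured library, with more Junb but less Egr1 and Jun. With every nucleus removed that held a UMI of these markers, the Junb difference was 2.75 with an adjusted p of 0.0124. In day 3 replicate 2, Junb was higher in stromal nuclei, at 164 CPM [146–184], than in immune-like nuclei, at 129 CPM [118–140]. In 5 of 6 libraries Junb was instead higher in immune-like nuclei, and the part of leukocyte RNA in its stromal level was not tested. In the fit without these marker-holding nuclei the differences were 1.28 for Fosl2 (edgeR adjusted p = 0.0964), 1.99 for Fos (0.393), 0.79 for Jun (0.585), and 0.25 for Jund (0.792). Fosl1, Fosb, and Egr1 did not pass the filter on low counts in that fit.

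The make-up of the stromal nuclei also differed between the groups. IIFC-like nuclei made up 63 of 133 and 176 of 377 stromal nuclei in uninjured, and 104 of 117 and 214 of 256 at day 3. Over all uninjured stromal nuclei, fibroblast markers summed to 2979 and 3993 CPM and IIFC markers to 1665 and 3313 CPM. At day 3 fibroblast markers summed to 406 and 558 CPM and IIFC markers to 4463 and 8427 CPM. Whether the nuclei named IIFC-like are of 1 kind in both groups was not tested. Within IIFC-like nuclei alone, Junb was at 11.2, 27.3, 114, 177, 39.3, and 20.4 CPM and Fosl2 at 78.6, 49.4, 153, 136, 103, and 77.4 CPM. Both genes had the same order of days as in all stromal nuclei. The IIFC-like cluster with high Pdzrn4 held most of the uninjured nuclei of this name, and Junb in it was at 12.4 and 21.9 CPM in uninjured, 125.0 and 154 at day 3, 38.7 on day 5, and 22.3 at day 7. In the IIFC-like cluster with high Tnc, which was almost absent from uninjured periosteum with 2 and 7 nuclei, Junb was at 112 and 203 CPM at day 3, 37.4 on day 5, and 13.5 at day 7. Both clusters had most Junb at day 3.

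Another IIFC-like cluster, led by Itgbl1 and with a median depth of 674 UMIs, had its UMIs of Egr1 and Fos mostly at day 5. Its 95 day 5 nuclei had 346 CPM [245–474] of Egr1 and 236 [154–346] of Fos, whereas its 149 day 7 nuclei had no UMI of Egr1 [0–36.8] and 10.0 CPM of Fos. Only 7.37% of the day 5 nuclei held a UMI of Egr1, and the same share held Fos, so few nuclei carried these sums and the intervals understate their error.

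In endothelial-like nuclei, no member passed the test at day 3. Of 6 members tested, 0 were called by edgeR, where 3.29% of 6782 genes were, 1.52% higher and 1.77% lower, and DESeq2 called 0. The only member with an unadjusted p under 0.05 was Fosl2. Fosl2 was at 54.7 [34.7–82.1] and 47.6 CPM [36.1–61.7] in uninjured, 151 [82.8–254] and 168 [133–209] at day 3, 118 [95.4–145] on day 5, and 74.1 [35.5–136] at day 7. The 2 groups did not overlap, and the log2 difference was 1.56 (SE 0.36, edgeR adjusted p = 0.0536), against a median of −0.01 over all genes. Its adjusted p was 0.163 by DESeq2 and 0.247 with nuclei holding leukocyte markers removed, with a range of 0.0272 to 0.534 over the alternatives.

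The other members in endothelial-like nuclei depended on single libraries. Junb was at 54.7, 21.7, 32.5, 120.2, 43.0, and 7.41 CPM, and the groups overlapped. Its difference was 1.18 (edgeR adjusted p = 0.400), and it was −0.15 without day 3 replicate 2. Fos was at 40.5, 5.85, 10.8, 31.1, 15.6, and 0 CPM, with the highest value in uninjured replicate 1 and a difference of 0.23. In the same uninjured library Fosb was at 38.1 CPM with 16 UMIs, whereas it had no UMI in uninjured replicate 2 or day 3 replicate 1. The differences of Jun, Jund, and Egr1 were −0.11, 0.08, and −0.11. Markers of macrophages summed to 2.38, 35.1, 97.4, 257, 66.4, and 29.7 CPM in endothelial-like nuclei, so their part in the day 3 values cannot be told apart from injury.

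**Figure D3:**
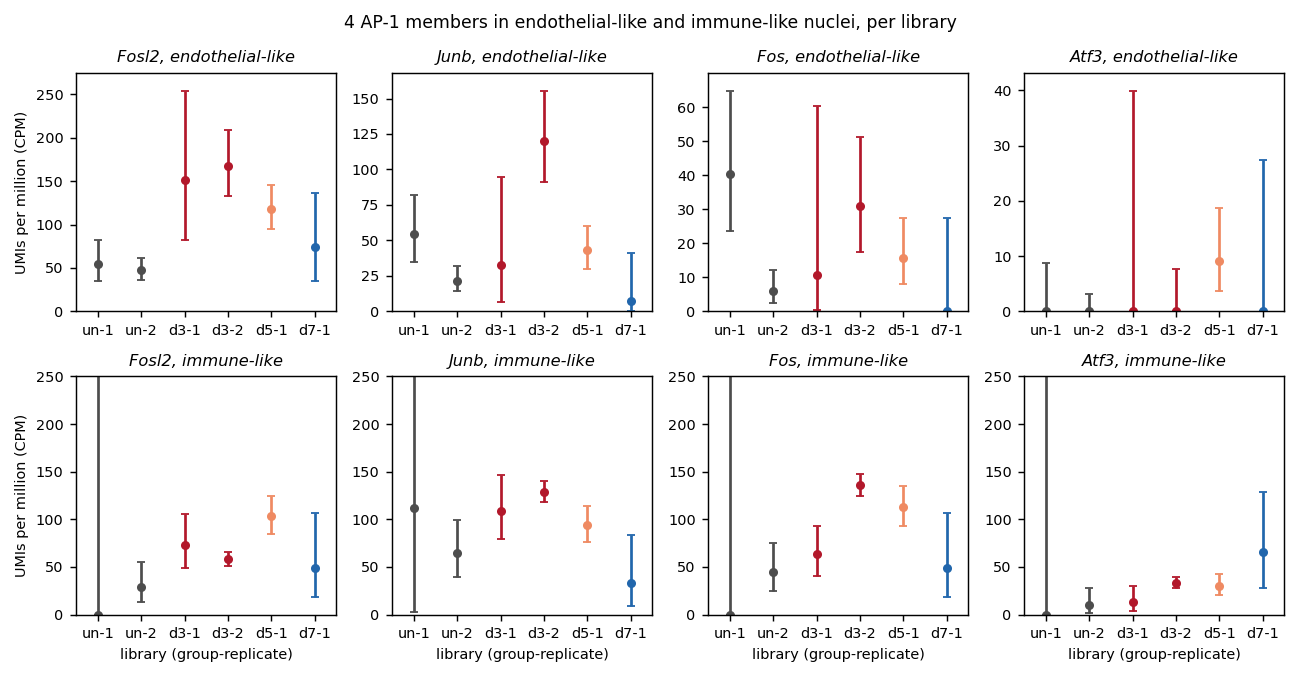
Levels of Fosl2, Junb, Fos, and Atf3 in endothelial-like and immune-like nuclei of each library, with exact Poisson 95% intervals. The immune-like axis ends at 250 CPM, and intervals of uninjured replicate 1, with 15 nuclei, run past it.

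Immune-like nuclei, which comprised macrophage- and neutrophil-like nuclei, gave no calls among the members. Of 5 members tested, 0 were called by edgeR, where 0.367% of 5988 genes were, all lower. None had an unadjusted p under 0.05, and DESeq2 called 0. Fos was at 0 [0–414] and 44.9 CPM [24.6–75.4] in uninjured, 63.3 [41.0–93.4] and 136 [125–147] at day 3, 113 [93.3–135] on day 5, and 49.1 [18.0–107] at day 7. The interval of uninjured replicate 1 covered every other value. The log2 differences were 1.41 for Fos, 1.43 for Fosl2, 0.97 for Junb, 0.50 for Jun, and −1.02 for Jund, against a median of 0.18 over all genes.

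The day 3 differences of stromal, endothelial-like, and immune-like nuclei were compared with each other in a joint fit. By edgeR, 0 of 6 members were called as differing between the populations, where 4.95% of 9112 genes were. For endothelial-like against stromal nuclei alone, 0 of 6 members were called, against 3.00% of genes, 1.62% higher and 1.37% lower. For immune-like against stromal nuclei, 0 of 6 were called, against 2.33% of genes, 0.615% higher and 1.71% lower. The unadjusted p was under 0.05 for 2 members, Junb (adjusted p = 0.162) and Fos (adjusted p = 0.275), and DESeq2 called 0. The difference of Junb was smaller than in stromal nuclei by −1.52 (SE 0.68) in endothelial-like and by −1.86 (SE 0.72) in immune-like nuclei. No difference between populations was therefore called for Junb at day 3, which does not show that its day 3 differences were equal. Fosb, which the filter on low counts left out, passed with no filter (edgeR adjusted p = 0.0425), and its adjusted p was at least 0.0738 where single libraries were left out.

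Atf3 in macrophage-like nuclei was described by library. Over all macrophage-like nuclei Atf3 was at 0, 3.70, 11.1, 35.3, 30.6, and 68.1 CPM. The day 7 value rested on 8 UMIs from few nuclei, so its interval understates the error. That interval [29.4–134] overlapped those of day 3 replicate 2 [29.5–41.9] and day 5 [20.9–43.2].

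Among 18 genes known as AP-1 targets, several also rose in stromal nuclei at day 3. Of the 16 tested, 5 passed, all higher, where 4.25% of all genes were higher, with a median log2 difference of 1.25 against 0.01 over all genes. The gene lists were chosen with earlier results of these data known, so their shares here and below are descriptions only. Hmox1, which degrades heme, was at 4.29, 1.98, 137, 73.5, 28.8, and 20.7 CPM (log2 difference 5.36, edgeR adjusted p = 0.00282). For Hmox1, the day 3 libraries lay above the uninjured libraries and above days 5 and 7. Timp1, an inhibitor of matrix proteases, was at 4.29, 23.1, 86.0, 168, 53.3, and 12.2 CPM (2.76, edgeR adjusted p = 0.0115). Ccl2, a monocyte chemokine, was at 0, 0.661, 16.1, 65.2, 3.78, and 0.609 CPM, with 1 against 123 UMIs (ratio 99.0, counting interval 17.4–3943, edgeR adjusted p = 0.00902). Il6, a cytokine, had 0 UMIs in uninjured and 40 at day 3, at least 10.7-fold more (edgeR adjusted p = 0.0169). In these 4 genes both day 3 libraries were above both uninjured libraries. The calls of Ccl2, Hmox1, and Timp1 were lost without uninjured replicate 2, with adjusted p-values of 0.138 for Hmox1 and 0.0754 for Timp1, and that of Il6 was lost by DESeq2. The calls of Ccl2, Timp1, and Il6 were also lost when all non-myogenic nuclei were summed, and over all alternatives the adjusted p reached 0.209 for Ccl2 and 0.0756 for Il6.

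Other lists of the pathway held fewer calls in stromal nuclei. Each of their counts is to be read against the 10.1% of all genes called here. Of 16 other immediate-early genes tested of 22, 2 passed, near that share, with a median of 0.16. Cyr61, a matrix signaling protein, was at 4.29, 23.8, 40.3, 237, 142, and 39.0 CPM and was higher at day 3 by 2.83 (edgeR adjusted p = 0.0326). Klf4, a zinc finger factor, was at 68.7, 69.4, 2.69, 18.4, 13.1, and 7.31 CPM and fell by 2.54 on the log2 scale (edgeR adjusted p = 0.0248). Of 16 kinases and SRF cofactors upstream of these genes, all tested, 1 passed, with a median of 0.14. This was Elk3, an ETS cofactor of SRF, at 30.0, 37.7, 159, 175, 186, and 157 CPM (2.19, edgeR adjusted p = 0.00766). Unlike Junb, Elk3 remained at this level at days 5 and 7. Of 6 heat-shock and dissociation-stress genes tested of 11, 1 passed, with a median of 1.32: Hspd1, at 8.58, 17.2, 96.8, 68.5, 28.4, and 26.2 CPM (2.42, edgeR adjusted p = 0.0214). The 8 feedback phosphatases and Sprouty-related genes tested of 13, with a median of 0.02, and the 6 further bZIP partners tested of 11, with a median of −0.11, gave 0 calls by edgeR. Under an unadjusted p of 0.05 were 1 gene of each list, and DESeq2 called 0. The calls of Cyr61, Klf4, Elk3, and Hspd1 were lost without uninjured replicate 2 and in at least 1 other alternative, with an adjusted p up to 0.461, 0.239, 0.903, and 0.574. Those of Cyr61 and Klf4 were also lost with nuclei holding leukocyte markers removed, and that of Cyr61 without day 3 replicate 2.

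Summed over genes, the members and the stress genes both had their highest stromal level in day 3 replicate 2. The 9 members summed to 223, 148, 336, 615, 338, and 133 CPM, and the heat-shock and dissociation-stress genes to 185, 199, 406, 527, 308, and 167 CPM. Both sums were higher in both day 3 libraries than in both uninjured libraries. According to the paper, nuclei were extracted mechanically from minced tissue in ice-cold buffer, with no enzymatic digestion. The part of dissociation stress in the levels of the members was not tested.

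In endothelial-like nuclei, 2 of 9 tested AP-1 targets passed at day 3, against 3.29% of all genes, with a median of 1.49. The hyaluronan receptor Cd44 was at 4.76, 20.0, 119, 99.5, 67.7, and 81.5 CPM (log2 difference 2.79, edgeR adjusted p = 0.0460). The call of Cd44 was lost with nuclei holding leukocyte markers removed, in the best-filled cluster alone, without either day 3 library, with no TMM, and with other limits on mitochondrial and ribosomal content, and its adjusted p reached 0.248 over the alternatives. In immune-like nuclei, 0 of 10 tested targets were called by edgeR, 2 had an unadjusted p under 0.05, and DESeq2 called 0.

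Many targets were also called between populations. In immune-like against stromal nuclei, 9 of 12 tested targets were called, 6 higher and 3 lower, against 20.0% of all genes higher and 22.9% lower. The highest differences were 3.66 for Hmox1, 2.44 for Ccl2, 2.28 for Spp1, and 2.03 for Tgfb1, and the lowest were −2.10 for Timp1 and −2.10 for Mmp13. Thus the targets that were called at day 3 in stromal nuclei were found on both sides, with Hmox1 and Ccl2 higher and Timp1 lower in immune-like nuclei. Of these 9 calls, 7 held in all alternatives, and that of Cd44 did not. Among other immediate-early genes, 8 of 16 were called, near the 42.9% of all genes, with Btg2 (1.89) and Zfp36 (1.78) higher and Cyr61 (−2.83) and Ctgf (−2.59) lower in immune-like nuclei. In endothelial-like against stromal nuclei, no tested member was called. Of 16 other immediate-early genes, 7 were called there, all higher, against 12.8% of all genes higher, with Klf2 at 2.62 and Btg2 at 2.21.

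The genes whose levels were most like those of a member were described by Pearson correlation of log2(CPM + 10) over 47 sums of a population in a library, each of at least 20 nuclei, among 7471 genes. These sums share libraries and depth, and no test was made. Fos was most like Fcer1g (0.839), Adam8 (0.831), and Apobec1 (0.784), and Junb most like Il4ra (0.810), Fgr (0.770), and Sgk1 (0.765). Fosl2 was most like Vopp1 (0.705), and the genes most like Jun and Egr1 were the ribosomal genes Rps15 (0.691) and Rps13 (0.608). For Fosl1 the most similar gene was Junb (0.637), and for Fosb it was Fos (0.553), but neither came first with log2(CPM + 1). The genes named for Fosl2, Jun, and Egr1 did not come first on that scale either. Among the members themselves, Fos and Junb were most alike (0.754), and Jun and Junb followed Fosl1 and Junb with 0.575. Of the 27 genes most alike, 3 per member, 10 were also found with that scale.

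The share of nuclei with UMIs of several members varied with the number of UMIs drawn. With 500 UMIs drawn from each of 6285 nuclei, 14.8% held at least 1 member and 1.64% held at least 2 (95% interval 1.34–1.98). That interval covers the count of nuclei only. Single libraries had from 0.271% at day 7 to 3.38% in day 3 replicate 2. With 1000 UMIs drawn, which 4949 nuclei allowed, the share with at least 2 was 4.57%, and without drawing it was 20.0%. Among stromal nuclei, the share with at least 1 member at 500 UMIs was 12.0%, 7.28%, 17.1%, 23.0%, 15.7%, and 6.15%, and without drawing 24.8%, 31.0%, 55.6%, 79.7%, 62.0%, and 19.4%. Day 3 replicate 2 had the highest share of member-positive nuclei at 500 UMIs and also the highest share of Ptprc-positive stromal nuclei. Day 3 replicate 1 and day 5 followed in both. The Ptprc shares were taken without drawing. Uninjured replicate 1 did not follow this order, with 12.0% member-positive nuclei but the lowest Ptprc share, 0.752%. Jun was found in 8 of 150 nuclei with Fos (5.33%) and in 133 of 6135 without Fos (2.17%), a description over nuclei that share libraries. Among stromal nuclei, Jun was found in 5 of 30 with Fos and in 1.59% without Fos. Among immune-like nuclei the direction was the other one, with 1 of 93 with Fos and 2.90% without Fos. These shares rested on few nuclei, so no order is read from them or from the pooled value.

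The promoters of Fos, Junb, and Jun are printed as examples of both subunit families, with the called gene Junb among them. RefSeq promoters (GRCm38.p6, 250 bases before to 50 after the start) were at hand for 7 of the 9 members, and Fosl1 and Egr1 are named only. The RefSeq starts used for Junb, Jund, Fosl2, Fosb, and Atf3 are not at the start of the gene span annotated by GENCODE, so these windows need not describe the transcripts counted. Both strands of all 7 windows were searched, and sequence farther from the start was not. No window held the full cAMP response element TGACGTCA (in 1.79% of 32851 promoters), the AP-1 element TGANTCA (7.81%), or a CArG box (1.63%). The shorter TGACG, part of the former element and found in 20.8% of promoters, was in Fos, Junb, Fosb, and Atf3. Fos (chr12:85473640-85473939, plus strand) held it at −129 and −66 from the start, with TATAAA (13.6%) at −33. Junb (chr8:84978699-84978998, minus strand) held it at −106, with TATAAA at position 1. Jun (chr4:95052173-95052472, minus strand) held 2 variant elements known from this gene, TTACCTCA (0.889%) at −164 and TGACATCA (3.62%) at −45. An EGR site by name (3.47%) was in Fosb and Fosl2. Capitals mark these letters, and a match is a description of the sequence only.
Fos: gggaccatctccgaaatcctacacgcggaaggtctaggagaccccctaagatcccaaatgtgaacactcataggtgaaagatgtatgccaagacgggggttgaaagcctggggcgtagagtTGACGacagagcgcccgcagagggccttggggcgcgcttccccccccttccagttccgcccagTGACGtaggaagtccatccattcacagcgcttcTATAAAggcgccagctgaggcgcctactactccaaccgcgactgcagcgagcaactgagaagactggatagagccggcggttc
Junb: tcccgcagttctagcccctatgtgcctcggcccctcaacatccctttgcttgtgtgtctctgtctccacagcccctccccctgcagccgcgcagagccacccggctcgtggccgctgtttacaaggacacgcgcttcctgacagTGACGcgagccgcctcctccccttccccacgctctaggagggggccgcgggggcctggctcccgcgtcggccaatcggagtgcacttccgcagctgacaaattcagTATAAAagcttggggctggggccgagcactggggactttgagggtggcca
Jun: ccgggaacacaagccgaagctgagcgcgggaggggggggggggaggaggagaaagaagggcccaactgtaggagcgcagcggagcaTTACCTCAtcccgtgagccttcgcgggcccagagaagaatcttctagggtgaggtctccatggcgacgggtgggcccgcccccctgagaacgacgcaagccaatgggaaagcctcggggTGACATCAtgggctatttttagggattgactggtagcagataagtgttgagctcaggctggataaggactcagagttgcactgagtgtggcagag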

How the data were processed

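The authors deposited UMI counts per gene and barcode for each of the 6 libraries, made by Cell Ranger 6.0.0 or 7.1.0 on mm10 per the submitters' processing notes, with intronic and exonic reads. Kept were barcodes with between 200 and 5000 genes whose mitochondrial share lay below 2% and whose ribosomal protein share lay below 1.5%, which left 644, 1174, 753, 1723, 2422, and 1351 nuclei in library order. Median depth was 1268, 2636, 2380.5, 1366, 2806, and 892 UMIs per barcode, so a gene at 10 CPM was seldom found in a single nucleus and levels were taken from sums. Libraries were integrated by CCA and clustered at a resolution of 1.3 in Seurat 5.3.0 (R 4.3.3). Among populations with at least 3 markers detected, a cluster took the name whose markers stood highest on average above the median cluster. Such a name describes a likeness only, and myogenic clusters were left out. Doublet scores from scanpy 1.11.5 (Scrublet) marked 2, 5, 8, 0, 3, and 1 nuclei, too few for this step to have worked, so the top 6% of scores was removed as an added alternative.

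Sums of at least 10 nuclei were tested with edgeR 4.0.16 (quasi-likelihood, filterByExpr, TMM) and DESeq2 1.42.0. Levels, intervals, correlations, and figures used numpy 2.4.6, scipy 1.17.1, pandas 2.3.3, and matplotlib 3.10.9. Days 5 and 7 had 1 library each and were described by values. Genes were named from fixed lists: at most 6 called genes per list and direction, and uncalled list genes outside the stromal comparison were counted but not named. The floor for a ratio against 0 UMIs was 3 UMIs in the empty group. The members and lists were chosen with earlier results of these data known. Alternatives were DESeq2, no filter, no TMM, each library left out, a resolution of 0.8, no integration, marked doublets removed, other limits (5% mitochondrial, no ribosomal limit), all non-myogenic nuclei, equal weight per nucleus, another added CPM, and other UMI draws. Chosen after the data were seen were the removal of the top 6% of doublet scores, the removal of nuclei with leukocyte markers, the best-filled cluster alone, the lowest-depth cluster left out, and the TGACG and Jun promoter elements. Results on 1 target gene and 1 cluster are not reported here. Gene coordinates came from GENCODE M21 and promoters from RefSeq.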

Additional observations from a re-analysis of the deposited data

Results flagged for a closer look

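In the joint test of whether the day 3 difference varies between stromal, endothelial-like, and immune-like nuclei, 4 genes of the pathway lists passed, and none of these calls held in all alternatives. They were 2 of 15 tested AP-1 targets, 1 of 14 kinases and SRF cofactors, and 1 of 7 feedback genes. The heat-shock, bZIP partner, and other immediate-early lists, with 7, 7, and 17 genes tested, held 0. These counts are to be read against the 4.95% of 9112 genes called in this test. The 4 genes were listed for a difference between groups of nuclei. The adjusted p by edgeR was 0.00052 for Ccl2, 0.00906 for Mapk10, 0.0233 for Spry4, and 0.0303 for Hmox1. Ccl2 and Hmox1 were higher at day 3 in stromal nuclei. Mapk10 was at 0, 10.6, 69.9, 17.3, 12.4, and 14.6 CPM in stromal and at 0, 28.9, 7.60, 0.940, 0, and 0 CPM in immune-like nuclei. Spry4 was at 8.58, 1.98, 2.69, 2.78, 2.34, and 1.83 CPM in stromal and at 11.9, 3.34, 32.5, 31.1, 26.0, and 7.41 CPM in endothelial-like nuclei. The call of Spry4 was lost without any of the 4 libraries (adjusted p up to 0.936). That of Ccl2 was lost by DESeq2 and without day 3 replicate 2 or uninjured replicate 2 (up to 1). Those of Hmox1 and Mapk10 were lost by DESeq2 and without either day 3 library or uninjured replicate 2 (up to 0.894 and 0.645), and that of Hmox1 also with no filter on low counts.

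The myogenic nuclei, which no comparison above used, also held more UMIs of 4 members at day 3. The day 3 to uninjured ratio was 11.8 for Junb (counting interval 7.63–19.3), 9.06 for Egr1 (3.72–28.7), 2.96 for Fosl2 (2.09–4.28), and 2.69 for Fos (1.49–5.19). Atf3 went the other way, with 33 UMIs in uninjured and 21 at day 3 (ratio 0.374, 0.206–0.666), and the intervals of the other 4 members included 1. Junb in these nuclei was at 17.4, 5.19, 52.1, 112, 79.0, and 13.1 CPM. These differences were not tested.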

How the results depend on the processing

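Of the alternative values for counts of calls, called members, and levels, 124 stayed the same, 27 moved, and 10 lost a call. Of those for other named genes, 997 stayed the same, 91 lost a call, 7 gained a call, and 44 reversed. Where no cause is named, the cause was not tested.

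Leaving out 1 library at a time leaves fewer samples. The number of genes called ran from 82 to 1152 in stromal nuclei, from 4 to 381 in endothelial-like nuclei, from 0 to 61 in immune-like nuclei, and from 24 to 461 for the difference between populations. In stromal nuclei at day 3, the log2 difference ran from 2.70 to 3.33 for Junb, from 3.51 to 7.40 for Fosl1, from −0.96 to 1.22 for Jun, from −0.24 to 0.39 for Jund, and from −0.21 to 0.14 for Maf. In endothelial-like nuclei it ran from −0.94 to 1.91 for Fos, from −0.60 to 0.27 for Jun, from −0.15 to 1.88 for Junb, from −0.45 to 0.51 for Jund, and from −7.03 to 0.27 for Egr1. Between endothelial-like and stromal nuclei it ran from −0.44 to 0.21 for Fos, from −0.075 to 0.098 for Fosl2, from −0.40 to 0.12 for Junb, and from −0.43 to 0.10 for Egr1. Between immune-like and stromal nuclei it ran from −0.97 to −0.55 for Fosl2 and from −1.63 to −1.12 for Egr1. Between pericyte-like and stromal nuclei it ran from −0.00033 to 0.46 for Jund and from −1.17 to 0.050 for Egr1.

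With DESeq2, 147 genes differed between populations (451 by edgeR) and 12 were called in immune-like nuclei (22 by edgeR). The differences were 3.94 for Fosl1 and −0.22 for Fosb in stromal nuclei, −0.12 for Fos and −0.039 for Jund in endothelial-like nuclei, and −1.08 for Egr1 between immune-like and stromal nuclei. With no filter on low counts, 715 genes were called in endothelial-like (223 with it) and 69 in immune-like nuclei, and Jund in endothelial-like nuclei was at −0.015. With no TMM, 42 genes were called in immune-like nuclei, and Jun (0.032) and Egr1 (0.047) in endothelial-like nuclei and Maf (0.024) in stromal nuclei changed sign. This scaling moved the median of all genes from −0.01 to 0.11 in endothelial-like nuclei, with 98 genes higher and 70 lower in place of 103 and 120, and from 0.18 to −0.06 in immune-like nuclei.

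With no integration, 8 genes were called in immune-like nuclei. In endothelial-like nuclei Jun was at 0.057, Jund at −0.046, and Egr1 at 0.0076, and in stromal nuclei Jund was at −0.11. Egr1 was at 0.018 between endothelial-like and stromal nuclei and at 0.14 between pericyte-like and stromal nuclei. With 5% mitochondrial and no ribosomal limit, 38 genes were called in immune-like nuclei. With marked doublets removed, Jun in endothelial-like nuclei was at 0.099, and with the top 6% of doublet scores removed at 0.25. With all non-myogenic nuclei summed in place of stromal nuclei, the differences were 2.04 for Fosl1, −0.73 for Fosb, −0.51 for Jund, −0.14 for Egr1, and 0.99 for Maf. In the best-filled cluster alone, with fewer nuclei, 384 genes were called in stromal (988 in all) and 125 in endothelial-like nuclei, Maf was at 0.22 in stromal nuclei, and Fos at −0.013 in immune-like nuclei. With nuclei holding leukocyte markers removed, 629 genes were called in stromal and 102 in endothelial-like nuclei, where Jun was at 0.23.

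Weighting each nucleus equally, the mean level was 5.57 CPM for Atf3 in stromal nuclei and 66.0 CPM for Jund in endothelial-like nuclei. With log2(CPM + 1), 10 of 27 most similar genes remained. With 1000 UMIs drawn, 4.57% of nuclei held at least 2 members, and without drawing 20.0%. More UMIs were then read per nucleus, but the nuclei also differed, with 1357 left out at 1000 UMIs and 21 at 500.

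No paired analysis was possible because the labels give no pairing between uninjured and day 3 mice. Depth limits the rarer members: Fosl1, Fosb, and Atf3 did not pass the filter on low counts in endothelial-like or immune-like nuclei, nor did Egr1 in the latter or Atf3 in stromal nuclei. Where an alternative tested them at day 3 within 1 of these populations, none was called. With 2 libraries per group, leaving out uninjured replicate 2 left 82 genes called in stromal nuclei in place of 988.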
